A study of Mus musculus with 4 samples.

Results

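The core proteins of the spliceosome are described here through their mRNAs in 4E-T and control IgG precipitates. A list of 38 genes was taken by symbol: the Sm proteins, the proteins particular to the U1, U2, U4, U5 and U6 small nuclear ribonucleoproteins (snRNPs), SF1 and the U2AF proteins, and factors of the Prp19 complex. SR proteins were not included. All 38 were found among the 35147 genes of the table, and all 38 had a mean FPKM (fragments scaled to gene length and library size) of at least 1, as did 17651 genes in all. The material was the ventricular-subventricular zone (V-SVZ), the germinal layer beside the lateral ventricle, of wild-type (WT) CD1 mice aged P7/P8. Lysates were precipitated either with anti-4E-T or with anti-IgG as control, and the RNA that came down was sequenced. Each antibody was used once in each of 2 numbered experiments, which gave 2 libraries per group. Whether animals were pooled, and whether the experiments used separate litters, is not stated in the labels, so the p-values measure the spread between these libraries, which may be technical. RNA of the lysate before precipitation was not analysed here.

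4E-T binds the cap-binding protein eIF4E, represses translation and is a component of P-bodies, granules in the cytoplasm that hold mRNA and protein. The spliceosome removes introns from pre-mRNA and is built anew on each intron. U1 snRNP recognises the start of the intron, SF1 and U2AF mark its branch point and end, and U2 snRNP replaces SF1 at the branch point. The tri-snRNP of U4, U6 and U5 then joins, and the Prp19 complex helps to activate the assembled machine. The mRNAs of these proteins are themselves translated in the cytoplasm.

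Reads assigned to genes, recovered from the deposited FPKM, numbered between 14421019 in IgG replicate 1 and 28749439 in 4E-T replicate 2. Every member was well covered, with at least 239 reads in every library. The deposited FPKM do not have the same scale in each library: gene reads per unit of the FPKM denominator, relative to IgG replicate 1, were 1.671 for the other IgG library, and for the 4E-T libraries 1.432 (replicate 1) and 1.84 (replicate 2). Differences are therefore given next to the median of all tested genes, which was 0.18 on the log2(FPKM + 1) scale, -0.08 on recovered reads with TMM scaling, a trimmed mean of log ratios between libraries, and -0.02 after quantile normalization. Markers of the V-SVZ lineage were present in every library, with 12 of 12 markers above 0 and a summed level of 905 and 1732 FPKM in IgG against 1283 and 1444 in 4E-T. Endothelial and mural markers, 6 of 6 above 0, summed to 167 and 114 FPKM in IgG and to 51.3 and 84.4 in 4E-T, and in RPM (recovered reads scaled to an equal total of gene reads in every library) the microglial (4 of 4 above 0; 456 and 625 in IgG, 358 and 324 in 4E-T) and oligodendrocyte lineage markers (4 of 4; 2221 and 3569 in IgG, 1750.0 and 1978 in 4E-T) were lower in both 4E-T libraries as well. So were the ependymal (2 of 2; 66.4 and 82.0 RPM in IgG, 48.7 and 42.8 in 4E-T) and red blood cell markers (2 of 2; 659.9 and 466 RPM in IgG, 415 and 296 in 4E-T). These markers moved with the antibody, and their part in the differences below was not tested. The nose marker Omp was at or below 0.215 FPKM in every library.

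In the 4E-T precipitates, RNAs of many core spliceosome proteins stood above their level with IgG. None of the 7 Sm ring genes was called higher in the fits below. Where those fits took account of the experiment number, 17.5% (FPKM) and 13.2% (recovered reads) of all genes were called higher. Of the 38 members, 35 had a log2 difference above 0, and the median was 0.60, which is 0.41 above all genes. The median was 0.30 without IgG replicate 1, 0.97 without IgG replicate 2, 0.86 without 4E-T replicate 1 and 0.33 without 4E-T replicate 2. These medians were not set against that of all genes, and the part of the library scale in their range was not tested. Together the members took 0.330% and 0.310% of gene reads with IgG and 0.490% and 0.478% with 4E-T, without overlap between the groups. This sum is weighted to genes with many reads, such as Sf3b1, with 534 and 356 RPM in IgG and 1047 and 946 in 4E-T. The 4E-T libraries both lay above both IgG libraries for 22 members in FPKM (57.9%, against 32.6% of all tested genes), and both lay below for 0 members (8.13% of all genes). In RPM, 22 members lay above (22.9% of all genes) and 4 lay below (25.9% of all genes). Each precipitate was made from bulk tissue, so a difference between the antibodies cannot be assigned to a cell type. Nor was it set against RNA of the lysate, which was not analysed here.

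**Figure D1:**
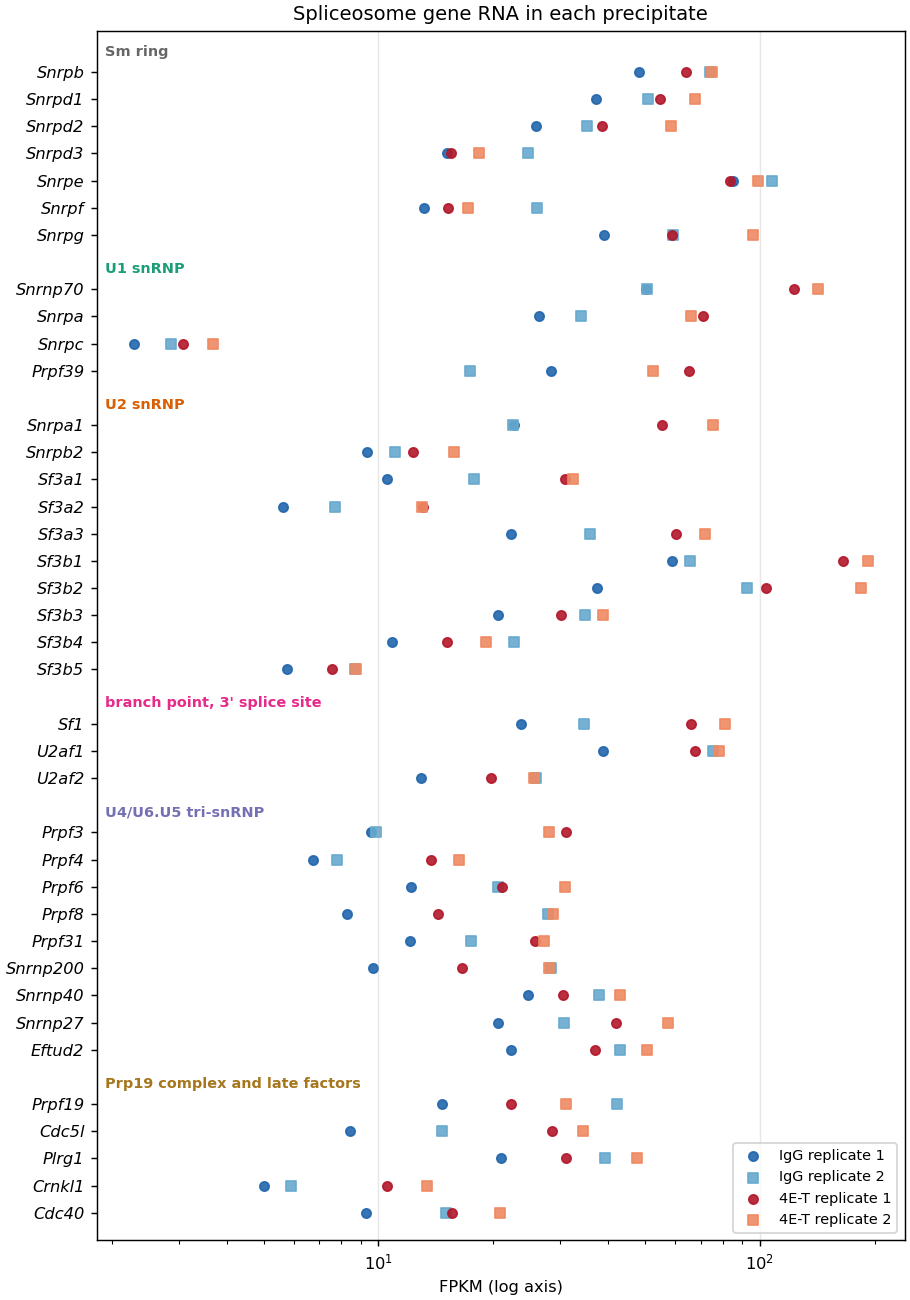
FPKM of the 38 spliceosome genes in the 4 libraries (log axis; blue IgG, red 4E-T; circles experiment 1, squares experiment 2), grouped by role. Both red points lie to the right of both blue points for 22 genes, among them Sf3b1, Prpf3 and Cdc5l, while the colours mix for most Sm ring genes; where the IgG points of Snrnp70 coincide, the later one covers the earlier.

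Without a block for the experiment number, limma called no member: the adjusted p-values of the 38 ran from 0.202 to 0.988, and 1 gene of all tested was called higher (0.00567%) and none lower (0%). Before adjustment, 13 of the 38 members and 2297 of the 17651 tested genes had a p under 0.05. Without IgG replicate 1 this fit called 3 members higher, against 4.86% of all genes. Without IgG replicate 2 it called 17, against 13.8% of all genes, and these were Prpf8, Snrnp200 and 15 of the 16 genes named next. Without either 4E-T library it called 0, against 0.0113% of all genes. With the experiment number as a block, 16 of 38 members (42.1%) were called higher and 0 lower, against 17.5% of all genes higher and 4.44% lower. The blocked limma-voom fit on recovered reads, called the read-based fit below, gave the same 16 genes and 0 lower, against 13.2% of all genes higher and 11.5% lower. Quantile normalization with the block called 15 of these 16 higher, against 10.4% of all genes, and 2 Sm ring members lower, against 9.23%. In the authors' deposited table, made from the same libraries, the same 16 members had an adjusted p under 0.05 and a higher level in 4E-T, against 10.7% of the 22881 genes with an adjusted p. The blocked fits have 1 residual degree of freedom and take most of each gene's spread from a trend across genes, so a very small p does not describe how a single gene varied. Below, a gene is said to have risen where it passed in both blocked fits, and every such gene failed without the block.

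The 16 genes that rose were Snrnp70, Snrpa and Prpf39 of the U1 snRNP, Snrpa1, Sf3a1, Sf3a2, Sf3a3, Sf3b1 and Sf3b2 of the U2 snRNP, Sf1, the tri-snRNP genes Prpf3, Prpf4, Prpf31 and Snrnp27, and Cdc5l and Crnkl1 of the Prp19 complex. For each of them both 4E-T libraries lay above both IgG libraries in FPKM and in RPM, as for 32.6% and 22.9% of all tested genes. The 16 were selected by fits to these same values, so this is not separate evidence. The member with the smallest difference among them was Prpf31 (0.82), and the nearest below it was Prpf6 (0.66), which did not pass (limma with the block, adjusted p = 0.0776).

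**Figure D2:**
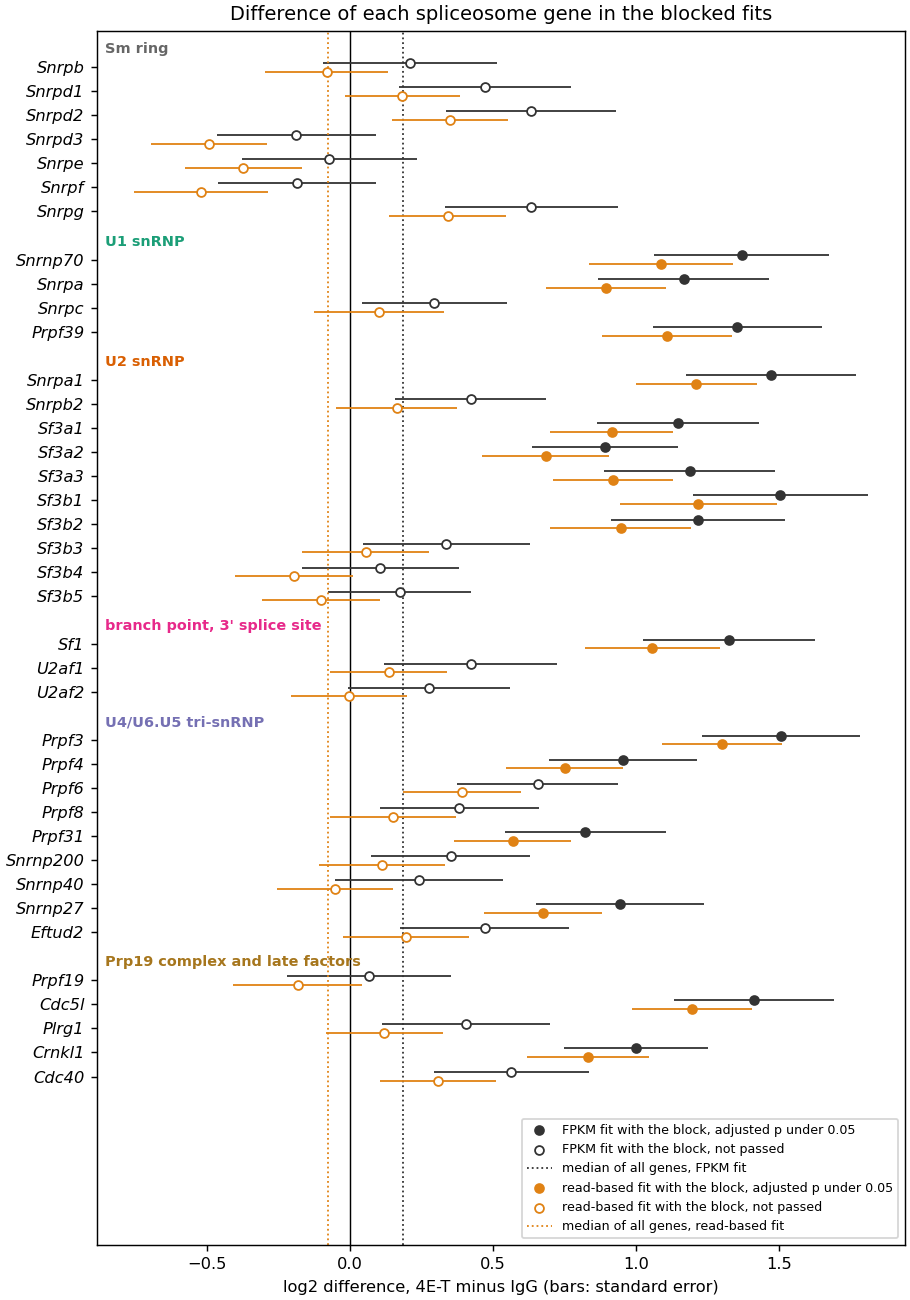
Log2 difference (4E-T minus IgG) of each gene with its standard error in the blocked FPKM fit (black) and the blocked read-based fit (orange); filled points have an adjusted p under 0.05, and dotted lines mark the median of all tested genes in each fit. The same 16 genes are filled in both fits, none of them among the 7 of the Sm ring. Of all tested genes, 17.5% (FPKM) and 13.2% (read-based) were called higher.

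The Sm ring is the shared core of the spliceosomal snRNPs other than U6, a ring of 7 small proteins that closes around the snRNA. None of its 7 genes passed in either blocked fit, where 17.5% (FPKM) and 13.2% (read-based) of all genes were called higher. Their median log2 difference was 0.21, which is 0.03 above that of all genes, and in the read-based fit it was -0.08, against -0.08 for all genes, so its sign depended on the scaling. Snrpg, which encodes SmG, was the highest, with 39.1 and 59.1 FPKM in IgG and 59.0 and 95.8 in 4E-T (replicate 1 first, here and below). Its IgG replicate 2 lay just above 4E-T replicate 1, so the groups overlapped, and its log2 difference of 0.63 (SE 0.30) did not pass (limma with the block, adjusted p = 0.122).

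The lowest of the 38 was Snrpd3, the gene of SmD3, with 15.1 and 24.7 FPKM in IgG and 15.5 and 18.4 in 4E-T. IgG replicate 2 was the highest of its 4 libraries, and the log2 difference was -0.19 (SE 0.28). Snrpf (-0.18) and Snrpe (-0.07), for SmF and SmE, were also below 0, and without IgG replicate 2 the differences of Snrpd3, Snrpe and Snrpf were 0.15, 0.09 and 0.28. Snrpd1 (0.47) and Snrpd2 (0.63) were above 0, and Snrpb was above it in the FPKM fit (0.21) and below it in the read-based fit (-0.08). In RPM, Snrpe had 83.5 and 63.1 in IgG and 57.2 and 52.8 in 4E-T, so that on this scale both 4E-T libraries lay below both IgG libraries, as they did for Snrpd3 and Snrpf. After quantile normalization with the block, Snrpd3 (log2 difference -0.58, limma adjusted p = 0.0110) and Snrpf (-0.57, adjusted p = 0.0159) were called lower, while in the read-based fit they missed the threshold (limma adjusted p = 0.0569 and 0.0877). Short, abundant mRNAs such as these often have processed copies in the genome, and Snrpb has the close relative Snrpn, so reads can be split between copies and single Sm values are uncertain.

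U1 snRNP pairs with the start of the intron. Of its 4 members 3 rose (75.0%, against 17.5% and 13.2% of all genes in the blocked FPKM and read-based fits). The group's median log2 difference was 1.26. Snrnp70 encodes U1-70K, which contacts splicing regulators, and had 50.3 and 50.7 FPKM in IgG and 123 and 142 in 4E-T. The IgG libraries were nearly equal and both 4E-T libraries were far above them, a log2 difference of 1.37 (SE 0.31, limma with the block, adjusted p = 1.58e-04). In RPM it had 295 and 178 in IgG and 503 and 453 in 4E-T, which again did not overlap.

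Snrpa, for the U1-A protein that binds a loop of U1 snRNA, had 26.3 and 33.9 FPKM in IgG and 71.0 and 65.9 in 4E-T. Its log2 difference was 1.17 (SE 0.30, limma with the block, adjusted p = 0.00125). Prpf39, whose yeast relative is a U1 snRNP protein, had 28.4 and 17.4 FPKM in IgG and 65.0 and 52.5 in 4E-T. Replicate 1 was the higher library of each antibody, and the groups did not overlap. The log2 difference was 1.35 (SE 0.30, limma with the block, adjusted p = 1.10e-04). Snrpc, for U1-C, which steadies the pairing with the splice site, was the least abundant member per length, with 2.28 and 2.85 FPKM in IgG and 3.07 and 3.67 in 4E-T. Both 4E-T values of Snrpc were the higher ones, but its log2 difference of 0.30 (SE 0.25) did not pass (limma with the block, adjusted p = 0.463).

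U2 snRNP binds the branch point through the SF3a and SF3b complexes. Of its 10 members 6 rose (60.0%, against 17.5% and 13.2% of all genes in the blocked FPKM and read-based fits). None fell (4.44% and 11.5% of all genes), and the median log2 difference was 1.02. Sf3b1, the large scaffold subunit of SF3b that closes around the branch point helix and is often mutated in blood cancers, had the highest FPKM of the 38 in 4E-T, with 58.9 and 65.5 in IgG and 165 and 192 in 4E-T. Both 4E-T libraries were more than 2-fold above both IgG libraries, and the log2 difference was 1.51 (SE 0.31, limma with the block, adjusted p = 2.92e-05). In RPM it had 534 and 356 in IgG and 1047 and 946 in 4E-T.

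Sf3b2, an SF3b subunit that contacts the pre-mRNA near the branch point, had 37.5 and 92.5 FPKM in IgG and 104 and 185 in 4E-T. Replicate 2 was much the higher library of each antibody, and IgG replicate 2 came close to 4E-T replicate 1. Its log2 difference was 1.22 (SE 0.31, limma with the block, adjusted p = 9.63e-04), and it was the one risen member whose value moved by over 1.5 times without a library: 0.58 without IgG replicate 1, 1.86 without IgG replicate 2 and 0.81 without 4E-T replicate 2. The other SF3b members did not rise. Sf3b4, an RNA-binding subunit, was the lowest of the U2 group, with 10.8 and 22.6 FPKM in IgG and 15.1 and 19.1 in 4E-T, where IgG replicate 2 was the highest library. Its log2 difference was 0.11 (SE 0.27) in the FPKM fit and -0.20 in the read-based fit. Sf3b3 and Sf3b5, further subunits of the complex, had 0.34 and 0.17 in the FPKM fit and 0.05 and -0.10 in the read-based fit. Within each library the FPKM of Sf3b1 was 2.85 and 1.88 times that of Sf3b3 in IgG and 5.49 and 4.96 times in 4E-T, a ratio that does not depend on the library's scale. Such a ratio was computed for 6 gene pairs, all chosen after their values were seen.

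All 3 SF3a genes rose. Sf3a1 had 10.5 and 17.8 FPKM in IgG and 30.9 and 32.3 in 4E-T, and Sf3a3 had 22.3 and 35.8 in IgG and 60.3 and 71.8 in 4E-T. Sf3a2, the least abundant of them per length, had 5.63 and 7.70 in IgG and 13.1 and 13 in 4E-T. Their groups were well apart, with log2 differences of 1.15 (SE 0.28), 1.19 (SE 0.30) and 0.89 (SE 0.26) and limma adjusted p-values with the block of 7.43e-04, 9.71e-04 and 0.00454. Snrpa1, for U2-A′, a protein bound to U2 snRNA, had 22.7 and 22.6 FPKM in IgG and 55.3 and 75.3 in 4E-T. Its IgG libraries were almost equal in FPKM but not in RPM, with 67.4 and 40.1 in IgG and 115 and 121 in 4E-T. The log2 difference of Snrpa1 was 1.47 (SE 0.30, limma with the block, adjusted p = 2.37e-05). Snrpb2, for the U2-B″ protein that binds the same snRNA as a partner of U2-A′, had a log2 difference of 0.42 (SE 0.26) and did not pass (limma with the block, adjusted p = 0.268).

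SF1 and the U2AF heterodimer bind the branch point, the polypyrimidine tract and the end of the intron before U2 snRNP arrives. Sf1 rose, with 23.7 and 34.5 FPKM in IgG and 66.0 and 81.1 in 4E-T and a log2 difference of 1.33 (SE 0.30, limma with the block, adjusted p = 2.01e-04). U2af2, the large subunit that binds the polypyrimidine tract, had 13 and 25.9 FPKM in IgG and 19.7 and 25.5 in 4E-T. Both 4E-T values of U2af2 lay between the IgG values, and the log2 difference was 0.28 (SE 0.28, limma with the block, adjusted p = 0.556) in the FPKM fit and just below 0 in the read-based fit. U2af1, the small subunit that reads the terminal AG, had a log2 difference of 0.42 (SE 0.30, limma with the block, adjusted p = 0.356); it has relatives with similar sequence that can share reads. The ratio of Sf1 to U2af2 FPKM was 1.83 and 1.33 in IgG and 3.34 and 3.17 in 4E-T.

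The tri-snRNP brings the catalytic RNA components. Of its 9 members 4 rose (44.4%, against 17.5% and 13.2% of all genes in the blocked FPKM and read-based fits). None fell (4.44% and 11.5% of all genes), and the median log2 difference was 0.66. The risen genes were Snrnp27 and the U4/U6 proteins among the members, Prpf3, Prpf4 and Prpf31. Snu13, which binds U4 snRNA but is not a member, had a log2 difference of -0.13. Prpf3, a U4/U6 protein whose human gene is mutated in retinitis pigmentosa, had 9.56 and 9.86 FPKM in IgG and 31.0 and 28.0 in 4E-T. With 1.51 (SE 0.28) it had the largest log2 difference of the 38 in the FPKM fit (limma with the block, adjusted p = 2.44e-06) and, with 1.30, in the read-based fit. Its partner Prpf4 had 6.72 and 7.79 FPKM in IgG and 13.8 and 16.3 in 4E-T, a log2 difference of 0.96 (SE 0.26, limma with the block, adjusted p = 0.00243).

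Prpf31, which binds U4 snRNA and links U4/U6 to U5, had 12.1 and 17.5 FPKM in IgG and 25.8 and 27.2 in 4E-T. Its log2 difference was 0.82 (SE 0.28, limma with the block, adjusted p = 0.0202), and it was the risen member that quantile normalization kept from passing in a blocked fit (limma adjusted p = 0.0562). Snrnp27, a small tri-snRNP protein rich in arginine and serine, had 20.5 and 30.6 FPKM in IgG and 42.1 and 57.6 in 4E-T, a log2 difference of 0.94 (SE 0.30, limma with the block, adjusted p = 0.0101).

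The 5 genes of U5 proteins among the members did not pass. They were Prpf8, the scaffold of the catalytic centre (0.38), Snrnp200, the helicase that unwinds U4 from U6 (0.35), Eftud2, a GTPase related to elongation factor 2 (0.47), Prpf6, a bridge between U5 and U4/U6 (0.66), and Snrnp40 (0.24), with limma adjusted p-values with the block from 0.0776 to 0.638. Without IgG replicate 2 and without a block, Prpf8 (1.2) and Snrnp200 (1.08) passed (limma adjusted p = 0.0192 and 0.0382), and without IgG replicate 1 they were at -0.43 and -0.38. Snrnp40, a WD40 repeat protein, was the lowest of the tri-snRNP, with 24.6 and 37.8 FPKM in IgG and 30.5 and 43.0 in 4E-T, so its groups overlapped. Prpf8 had 90.1 and 181 RPM in IgG and 109 and 169.6 in 4E-T, where replicate 2 was the higher library of each antibody and the groups overlapped. Relative to the Sm ring in the same library, the geometric mean FPKM of Prpf3, Prpf4 and Prpf31 was 0.292 and 0.232 in IgG and 0.560 and 0.455 in 4E-T. For the U5 proteins the same ratio was 0.444 and 0.642 in IgG and 0.564 and 0.691 in 4E-T, with overlap. These subgroups were formed after the values were seen, and the difference between them was not tested.

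The Prp19 complex and the late factor Cdc40 had 2 risen genes of 5. Of all genes, 17.5% (blocked FPKM fit) and 13.2% (read-based fit) were called higher. The group is small, and its count was not tested against these shares. Cdc5l, a core scaffold of the Prp19 complex, had 8.41 and 14.7 FPKM in IgG and 28.5 and 34.4 in 4E-T. Both 4E-T libraries lay well above both IgG libraries, with a log2 difference of 1.41 (SE 0.28, limma with the block, adjusted p = 1.53e-05). Crnkl1, a protein of many tetratricopeptide-like repeats, had 5.01 and 5.90 FPKM in IgG and 10.5 and 13.4 in 4E-T, a log2 difference of 1.0 (SE 0.25, limma with the block, adjusted p = 0.0010).

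Prpf19, the ubiquitin ligase that names the complex, did not rise, with 14.7 and 42.3 FPKM in IgG and 22.2 and 31.0 in 4E-T. IgG replicate 2 was its highest library, and it stood higher in 4E-T in experiment 1 (0.57) and lower in experiment 2 (-0.44). Its log2 difference over both was 0.07 (SE 0.29) in the FPKM fit and -0.18 in the read-based fit. Plrg1, a WD40 partner of Cdc5l, had a log2 difference of 0.41 (SE 0.29) and Cdc40, which acts at the second step of splicing, one of 0.56 (SE 0.27), and neither passed (limma with the block, adjusted p = 0.361 and 0.122). The ratio of Cdc5l to Prpf19 FPKM was 0.574 and 0.346 in IgG and 1.28 and 1.11 in 4E-T. Of the remaining pairs, Prpf3 to Prpf8 overlapped between the antibodies, with 1.16 and 0.355 in IgG and 2.17 and 0.977 in 4E-T. Prpf3 to Snrnp40 (0.388 and 0.261 in IgG, 1.02 and 0.650 in 4E-T) and Snrnp70 to Snrpc (22.0 and 17.8 in IgG, 39.9 and 38.7 in 4E-T) did not.

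Set against the Sm ring within each library, the 5 other groups stood higher in both 4E-T libraries than in both IgG libraries. The geometric mean FPKM of the U1 group over that of the Sm ring was 0.543 and 0.360 in IgG and 0.914 and 0.720 in 4E-T. For the U2 group the ratios were 0.492 and 0.494 against 0.794 and 0.766. They were 0.725 and 0.857 against 1.12 and 1.07 for SF1 and U2AF. The tri-snRNP group had 0.403 and 0.458 against 0.603 and 0.635, and the Prp19 group 0.330 and 0.390 against 0.503 and 0.529. A library's scale cancels in these ratios. They set the groups against the Sm ring and do not show that the Sm ring stayed the same, and with 2 libraries per group no test was run on them. The ratios were not among the planned results. The Sm ring had the lowest median log2 difference of the groups (0.21), which by itself favours higher ratios in the others. In the SF1 and U2AF group only Sf1 rose.

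**Figure D3:**
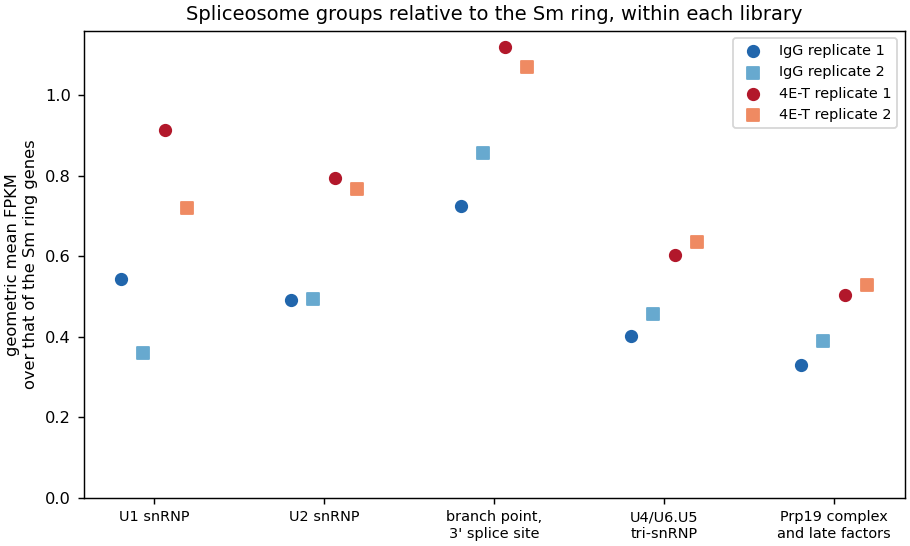
Geometric mean FPKM of each group of genes divided by that of the 7 Sm ring genes in the same library (linear axis from 0; blue IgG, red 4E-T; circles experiment 1, squares experiment 2). In each of the 5 groups both red points lie above both blue points, by the widest margin for the U2 group relative to the spread of its libraries.

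The experiments gave the members a similar order. Across the 38 genes, Pearson's r between the log2 differences of experiment 1 and experiment 2, which share no library, was 0.831 (Spearman's rho 0.813), against 0.623 (0.641) across all 17651 tested genes. This is a correlation across genes, which are not independent replicates, and the libraries of an experiment share its processing. The members' median was 0.72 in experiment 1 and 0.52 in experiment 2, which is 0.40 and 0.44 above all genes. The difference of Snrpa1 was 1.25 in experiment 1 and 1.70 in experiment 2, and that of Sf3b1 1.47 and 1.54. In 6 members, none of which rose, the sign differed between the experiments: Snrpd3, Snrpf (0.20 and -0.57), Sf3b4 (0.45 and -0.23), U2af2, Snrnp200 and Prpf19.

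**Figure D4:**
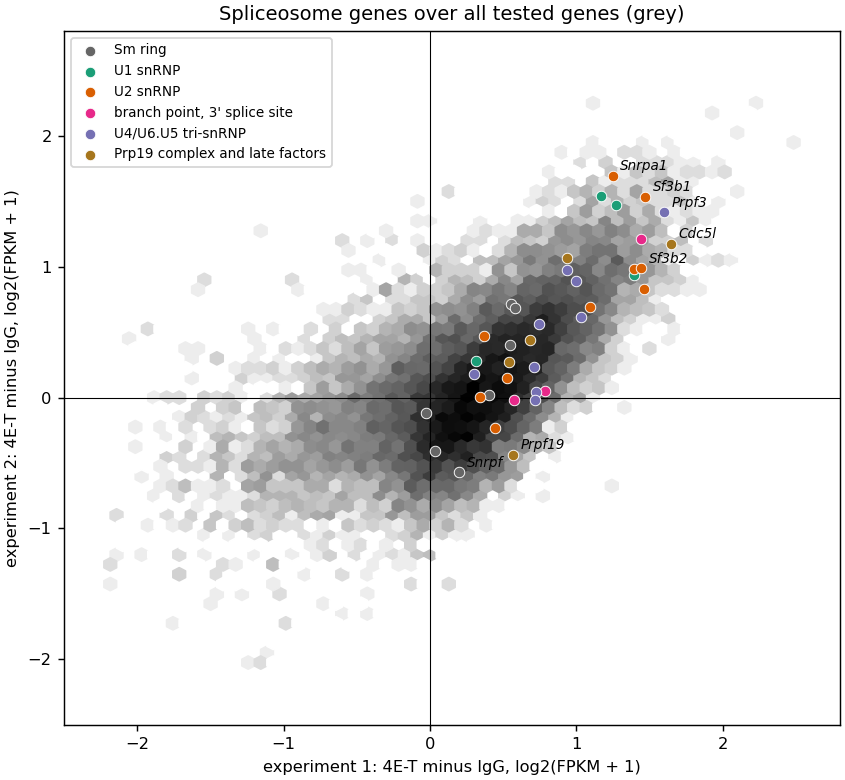
Log2(FPKM + 1) difference of 4E-T minus IgG in experiment 1 (x) and experiment 2 (y), with all 17651 tested genes as grey density and the 38 spliceosome genes coloured by group. Snrpa1, Sf3b1, Prpf3 and Cdc5l lie at the upper right, and Snrpf and Prpf19 lie below 0 in experiment 2.

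Length and abundance were not used to choose the genes. The exonic length implied by the counts, relative to the median tested gene, had a median of 0.378 in the Sm ring and 1.16 in the other 31 members. Across the 38 members Pearson's r of the log2 of this length with the log2 difference was 0.244 (Spearman's rho 0.169). Across all tested genes it was 0.295 (0.227). Pearson's r of log2 mean FPKM with the difference was 0.274 (Spearman's rho 0.296) in the members and 0.34 (0.353) in all tested genes. Prpf8 and Snrnp200, the longest members by this measure, did not rise, and Sf3b1, the next longest, did. The part of length or abundance in the differences was not tested.

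The rest of the splicing machinery was followed in 101 further genes, of which 100 were in the table and 99 were tested. With the block 50 of the 99 (50.5%, against 17.5% of all genes) were called higher and 0 lower (4.44% of all genes). The read-based fit called 48 higher (48.5%, against 13.2% of all genes) and 1 lower (11.5% of all genes), and the blocked fit after quantile normalization called 37 higher (37.4%, against 10.4% of all genes). Their median log2 difference was 0.72, against 0.18 for all genes. Without the block none passed in limma. Of the 99, 34 had an unadjusted p under 0.05, as did 2297 of all 17651 tested genes. Genes of proteins associated with U1 and U2 snRNPs had 11 of 14 (78.6%) higher with the block and in the read-based fit. After quantile normalization with the block, 10 (71.4%) were higher. Luc7l3, a relative of a yeast U1 snRNP protein, was the highest of the 99, with 40.5 and 26.1 FPKM in IgG and 119.5 and 124 in 4E-T (log2 difference 1.87, SE 0.30, limma with the block, adjusted p = 9.02e-08). Phf5a, a small subunit of SF3b, was the lowest there, at 0.03.

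Factors related to the Prp19 complex and late helicases had 18 of 25 (72.0%) higher with the block and in the read-based fit. Of all genes 17.5% and 13.2% were. After quantile normalization with the block, 15 (60.0%) were higher, against 10.4% of all genes. Cwc22, which loads an exon junction protein on the spliceosome, had 95.2 and 49.5 FPKM in IgG and 258 and 163 in 4E-T (log2 difference 1.57, limma with the block, adjusted p = 1.29e-05). Ppil1, a cyclophilin, was the lowest, at -0.23, and was called lower in the read-based fit (-0.54, limma adjusted p = 0.0359). Further tri-snRNP and B complex proteins had 8 of 16 higher, from Wbp4, a WW domain protein, at 1.68 to Snu13, which binds U4 snRNA, at -0.13. After quantile normalization with the block, Ppil1, Snu13, Smu1 and Txnl4a were the 4 of the 99 called lower, where 9.23% of all genes were.

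The LSm proteins, relatives of the Sm proteins that cap U6 snRNA or act in mRNA decay, were tested together with the SmN gene Snrpn. Of these 11 genes 1 rose (9.09%, against 17.5% and 13.2% of all genes in the blocked FPKM and read-based fits). This was Lsm5 (log2 difference 0.88, limma with the block, adjusted p = 0.0131), which missed the threshold once quantile-normalized (adjusted p = 0.0729). Their median of 0.17 was next to that of all genes, as in the Sm ring. Lsm11, of the U7 snRNP, was the lowest at -0.16. Snrpn, an imprinted paralog of Snrpb, had 122 and 254 FPKM in IgG and 135 and 202 in 4E-T, which overlapped.

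Genes of the minor spliceosome, which removes a rare class of introns, had 5 of 10 higher in the FPKM fit with the block and 4 in the read-based fit. Rnpc3, the U11/U12 protein that binds U12 snRNA, had 17.0 and 9.09 FPKM in IgG and 48.9 and 39.7 in 4E-T (log2 difference 1.74, limma with the block, adjusted p = 1.41e-07), and Snrnp35 was the lowest at -0.26. In the list for snRNP assembly and transport 5 of 15 (33.3%) were higher in both of these fits, against 17.5% and 13.2% of all genes. Only 1 (6.67%, against 10.4% of all genes) was higher in the blocked fit on quantile-normalized values. The highest was Phax, the adaptor for export of snRNA from the nucleus, with 16.1 and 30.0 FPKM in IgG and 52.8 and 89.9 in 4E-T (log2 difference 1.60, limma with the block, adjusted p = 3.61e-06), and Gemin6, of the SMN complex, was the lowest at -0.04. Exon junction genes had 2 of 8 higher with the block (25.0%, against 17.5% of all genes) and 1 in the read-based fit (12.5%, against 13.2%), shares near those of all genes. Their log2 differences ran from Acin1 at 1.11 to Magoh at 0.25.

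**Figure D5:**
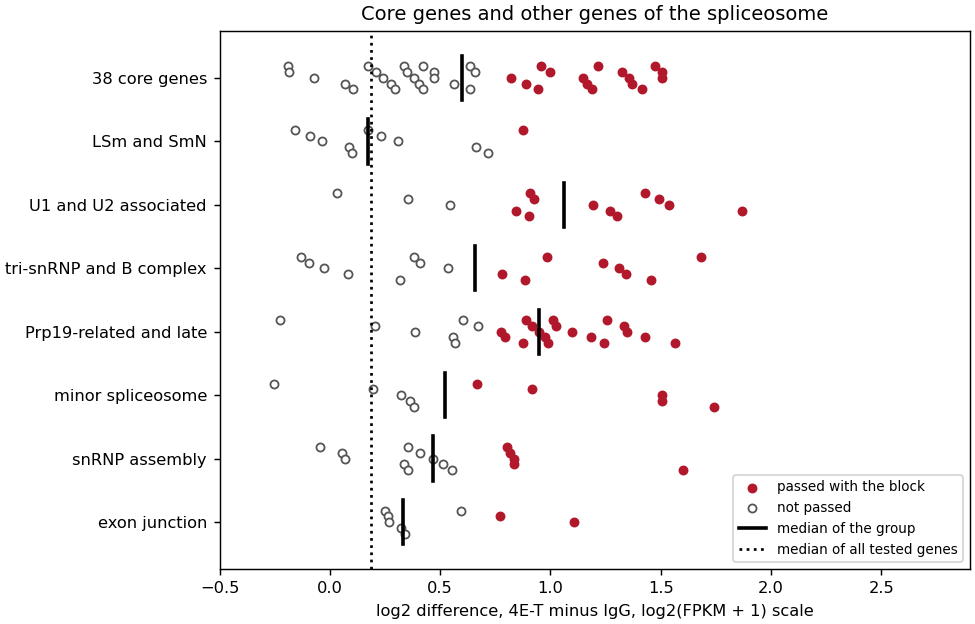
Log2(FPKM + 1) difference of 4E-T minus IgG for the 38 core genes and 7 groups of other splicing genes; filled red points passed in the blocked FPKM fit, bars mark group medians and the dotted line the median of all tested genes. Genes associated with U1 and U2 (11 of 14 filled) and Prp19-related genes (18 of 25) lie furthest right, and the LSm group (1 of 11) is centred on the dotted line. Of all tested genes, 17.5% were called higher in this fit.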

How the data were processed

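RNA from anti-4E-T and anti-IgG precipitates of mouse V-SVZ was isolated with the MAGNA RIP kit and sequenced after SMART-Seq v4 cDNA synthesis and Nextera XT library preparation, per the labels' protocols. The submitters' processing notes name STAR 2.6.0c as well as Trim Galore 0.5.0, the counter HTSeq 0.6.1p2, the tool DESeq2 1.26.0 and the build mm10. The annotation release, strand setting and FPKM denominator were not given in the sources used here, so overlapping and antisense genes may share reads. The authors deposited FPKM per library. Per the file headers, the table also holds the authors' mean normalized signal, log2 fold change with its standard error, and adjusted p-value for 4E-T against IgG.

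Within a library, a gene's deposited FPKM is a whole number of equal steps, 1 per read, and with the mean signal they gave back reads for every gene (100% of values whole within a relative tolerance of 0.001). The main test was limma 3.58.1 (R 4.3.3) fitted to log2(FPKM + 1) for genes with a mean of at least 1, with trended, robust moderation, two-sided, Benjamini-Hochberg adjusted over all 17651 genes, and called under 0.05. This scale understates changes of low genes. Alternatives were a pseudocount of 0.1, no filter, quantile normalization, leaving out each library, the experiment number as a block, and limma-voom on the recovered reads with TMM scaling (trims 0.3 and 0.05). Libraries of an experiment deviated together from their group means (correlation across genes 0.67 on FPKM and 0.49 after quantile normalization), and their titles share an experiment number, so the blocked values are printed.

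The members and lists were chosen with earlier results of these data known. By rule, values per library are given for the highest and lowest member of each role and for members called in both blocked fits, and the highest and lowest gene of each other list is named; Snrpn and genes called lower were added after their values were seen.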

Additional observations from a re-analysis of the deposited data

How the results depend on the processing

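Calls depended on the replicate block and levels on the scaling. With the replicate block, 16 members, 50 of the 99 other spliceosome genes and 3090 of all genes were higher and 784 of all genes lower, against 0, 0, 1 and 0 without it. With the replicate block and quantile normalization these were 15, 37, 1843 and 1630, with 2 members and 4 other spliceosome genes lower. With the replicate block on recovered reads they were 16, 48, 2327 and 2035, with 1 other spliceosome gene lower. Without the block, no filter, quantile normalization and recovered reads each called 0 genes. The members' median of 0.60 was 0.24 after quantile normalization and 0.32 on recovered reads, with or without the block, while a pseudocount of 0.1 and no filter kept every member's sign and side of the threshold.

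Leaving out 1 library gave 0 to 17 members, 0 to 44 other spliceosome genes and 2 to 2441 of all genes higher, 0 to 1094 of all genes lower, and a members' median of 0.30 to 0.97. In these fits the remaining library of an antibody is assumed to vary like the others. No member that rose was below 0 in any alternative. The log2 difference turned negative after quantile normalization, with or without the block, in Snrpb (-0.12), Sf3b3 (-0.0678), Sf3b4 (-0.27), Sf3b5 (-0.12), U2af2 (-0.12), Snrnp200 (-0.016), Snrnp40 (-0.17) and Prpf19 (-0.32). On recovered reads, with and without the block, it did in Snrpb (-0.0819 and -0.0797), Sf3b4 (-0.20), Sf3b5 (-0.10), U2af2 (-0.0041 and -0.0072), Snrnp40 (-0.0519 and -0.0522) and Prpf19 (-0.18). Across the fits without 1 library, the sign turned in Snrpb (-0.0947 to 0.51), Snrpd3 (-0.53 to 0.15), Snrpe (-0.24 to 0.0941), Snrpf (-0.65 to 0.28), Sf3b3 (-0.0273 to 0.70), Sf3b4 (-0.39 to 0.61), Sf3b5 (-0.0877 to 0.43), U2af1 (-0.0484 to 0.89), U2af2 (-0.20 to 0.75), Prpf8 (-0.43 to 1.20), Snrnp200 (-0.38 to 1.08), Snrnp40 (-0.0585 to 0.54), Prpf19 (-0.67 to 0.80) and Plrg1 (-0.0323 to 0.84). The cause was not tested.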

Other observations

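Values of 4 genes named as small nuclear RNAs were looked up after the results were known. Rnu2-10 had 7 and 4 recovered reads in IgG and 10 and 11 in 4E-T. Rnu6 had 4 and 1 in IgG and 15 and 11 in 4E-T, and Rnu12, of the minor spliceosome, had 2 and 2 in IgG and 3 and 3 in 4E-T. Rnu73b had 0 and 2 in IgG and 2 and 6 in 4E-T. Counts this low do not let the antibodies be compared.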
